A study of Rattus norvegicus with 9 samples.

Results

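DEAD-box and DEAH-box RNA helicases were measured in embryonic rat ventral spinal cord with a mutant or a wild-type human SOD1 transgene and in a negative control. The family was taken as every probe set of the Affymetrix rat array whose annotation gives a single gene symbol beginning with Ddx or Dhx and a digit, or Eif4a1, Eif4a2 or Eif4a3. That gave 75 of 31042 probe sets, for 50 of the 14217 genes named there by a single symbol. Of these, 32 are Ddx, 15 are Dhx and 3 are Eif4a genes. Another 3 probe sets that name such a gene together with a second symbol were left out. The Ddx symbols include Ddx3x-ps1, a pseudogene of Ddx3x.

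Each of the 9 arrays carried total RNA of ventral spinal cord at embryonic day 14 from 1 pool of 5 embryos. The groups were 4 pools with mutant hSOD1 (G93R, with the name Roth in the titles), 4 pools with wild-type hSOD1 (with the name Chan) and 1 negative control pool (SDneg). The description of the negative control also calls its embryos positive, against its title. SOD1 is an enzyme that removes superoxide, and inherited mutations in its gene, such as G93R, are a known origin of amyotrophic lateral sclerosis. The promoter and number of founder lines of the transgenes are not given in the sources used here, and each transgene stands for 1 name, so mutation, rat line and insertion site cannot be told apart.

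RNA helicases of these families use ATP to unwind short RNA duplexes or to strip proteins from RNA. The names come from the amino acids of a conserved motif that binds and hydrolyses ATP. Different members act at successive steps in the life of an RNA: splicing in the nucleus, assembly of ribosomes in the nucleolus, export, translation, storage and decay. Ddx42 is a DEAD-box protein that associates with the U2 snRNP, the particle that recognises the branch point of introns.

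Intensities are linear, as the authors gave them, and are listed for pools 1 to 4 in that order or as mean ± SD of 4 pools. Where values of both groups follow each other, the mutant pools come first. Log2 differences come from limma on log2 of intensity plus 8.25, fitted on all 18625 probe sets above a filter on low values, with Benjamini-Hochberg adjustment over all of them. Of the 75 helicase probe sets, 65 passed the filter, for 47 genes. Intensities of different probe sets are not on a common scale, so levels are compared only within a probe set. The array medians lay between 31.0 and 33.9. Wild-type replicate 2 stood apart: the ratio of its 3' to its 5' beta-actin probe set, a common index of RNA integrity, was 19.2, where the other wild-type pools lay between 8.19 and 9.20, the mutant pools between 6.98 and 7.98 and the negative control at 6.66. It was the highest or lowest of the 9 arrays at 26 of the 65 helicase probe sets (40%), and at 40.9% of all tested probe sets. All 7 neuronal and all 5 motor neuron marker genes on the array were above the filter, and none of 3 endothelial, 4 microglial and 2 red blood cell markers was. Also above the filter were 6 of 9 ventral progenitor, 1 of 5 oligodendrocyte and astrocyte and 3 of 4 cartilage and muscle markers. The 1 dorsal cord marker on the array was not. Summed motor neuron marker intensity was 1716 to 2510 in mutant pools, 1463 to 1903 in wild-type pools, against 1822 in the negative control. For the sensory ganglion, whose cells lie beside the cord, 5 markers were on the array and 4 of them above the filter. Summed over all 5, their intensity was 5166 to 7698 in mutant pools, 4951 to 5532 in wild-type pools, against 5053 in the negative control. Each sum adds probe sets on different scales and is set mostly by the bright ones. On the brightest probe set of each gene, all 4 sensory ganglion markers above the filter were higher in mutant than in wild-type pools. So were 4 of the 5 motor neuron markers. Of these, 2 and 1 had an unadjusted p under 0.05, and none passed. Those 3 were Runx1 (log2 difference 0.64), Sncg (0.34) and the motor neuron marker Isl1 (0.45), each with a limma adjusted p = 0.929. Of the 6 ventral progenitor markers, 1 was higher and 5 were lower in mutant pools, 0 of them at an unadjusted p under 0.05. Among all tested probe sets, 53.7% were higher in mutant pools and 4.93% had an unadjusted p under 0.05. The part of marker levels in the results below was not tested, and in pooled tissue fewer cells of a type and less RNA per cell cannot be told apart.

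Setting mutant against wild-type pools asks what differs between pools with the mutant and pools with the wild-type transgene, in either of them. Among the helicases, 1 probe set of Ddx42 was lower in mutant pools and no other helicase probe set passed. Its intensity was 21.0 to 24.1 in the mutant pools and the negative control, and 49.1 to 99.4 in the wild-type pools. The second Ddx42 probe set did not show this. The other 64 helicase probe sets differed by −0.48 to 0.33 on the log2 scale, and 58 of the 65 differed by less than 0.2.

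Ddx42 probe set 1379896_at had intensities of 21.3, 23.5, 21.0 and 24.1 in the mutant pools. Its wild-type values were 86.0, 99.4, 65.3 and 49.1, and the negative control had 21.5. All 4 wild-type pools thus stood above all mutant pools and above the negative control, which lay among the mutant pools. The wild-type mean was 3.34 times the mutant mean and 3.49 times the negative control. The probe set is dim. Its mutant and negative control values lay above the filter on low values, about 17.3, but below every array median (31.0 to 33.9). Mutant minus wild-type, the log2 difference was −1.40 (SE 0.184, 95% interval −1.80 to −1.001, limma adjusted p = 0.0339), the second smallest p of all tested probe sets. The exact two-sided permutation p was 0.0286 for this probe set alone (n = 4 pools each), the smallest that 70 arrangements allow.

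**Figure D1:**
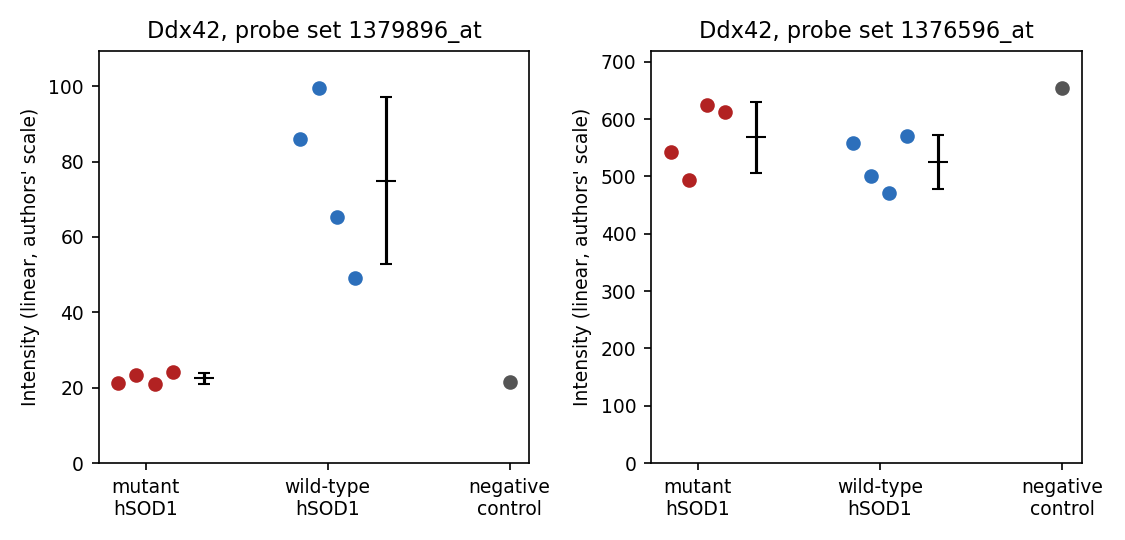
Intensity of both Ddx42 probe sets in each pool, on a linear axis that starts at 0; points are pools, and the black mark with bars is the mean ± SD of 4 pools. On probe set 1379896_at the 4 wild-type pools lie between 49.1 and 99.4 and all other pools between 21.0 and 24.1, while on probe set 1376596_at the groups overlap.

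Ddx42 probe set 1376596_at had intensities of 542, 493, 625 and 613 in mutant pools and 558, 499.9, 471 and 571 in wild-type pools. The negative control stood above all 8 at 654. Mutant and wild-type pools overlapped, with a log2 difference of 0.11 (95% interval −0.11 to 0.33, limma adjusted p = 0.936). The interval of this probe set does not reach the difference of the other. Which Ddx42 transcripts or exons the probe sets read was not determined here.

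The difference between the probe sets was tested directly, as the log2 ratio of both in each pool. The ratio differed between the groups by 1.51 on the log2 scale (SE 0.219, 95% interval 1.03 to 1.99). This was the smallest p among 4615 pairs of probe sets of the same gene, but after adjustment over all pairs it did not pass (limma adjusted p = 0.0546). In limma 0 of the 4615 pairs passed, which is 0% of them, and 279 had an unadjusted p under 0.05. The ratio passed with quantile normalization (adjusted p = 0.0499), with a pseudocount of 33.0 (0.0455) and without wild-type replicate 4 (0.00919); over all alternatives its adjusted p ranged from 0.00919 to 0.452.

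The call of Ddx42 probe set 1379896_at depended on the pools and settings used. It was lost with no filter on low values (limma adjusted p = 0.157), without the intensity trend (0.101) and with the le2 tag of the titles as a covariate (0.0649), each at the same difference of −1.40. It held when wild-type replicate 4, the wild-type pool nearest to the mutant pools, was left out (difference −1.56, limma adjusted p = 0.0045). It was lost when any other of the 8 arrays was left out, with differences from −1.44 to −1.26 and adjusted p from 0.0701 to 0.193; without wild-type replicate 2 the values were −1.26 and 0.0761. Within the wild-type group the intensity of Ddx42 1379896_at followed the order of the actin ratio, which was 9.20, 19.2, 8.52 and 8.19 in wild-type replicates 1 to 4. The mutant pools, low on both, did not follow it, with ratios of 6.98, 7.98, 7.24 and 7.02. The same order in the wild-type pools was found at 5 of 65 helicase probe sets and at 4.23% of all tested probe sets. Mutant and wild-type pools did not overlap in the actin ratio either (two-sided exact permutation p = 0.0286, n = 4 each). The GAPDH 3'/5' ratio gave another order, with 2.585, 3.561, 2.614 and 2.760 in wild-type replicates 1 to 4. It was 2.492 to 2.587 in mutant pools and 2.680 in the negative control, so that mutant and wild-type pools overlapped (two-sided exact permutation p = 0.0571, n = 4 each). With the log2 actin ratio as a covariate the difference was −1.12 (limma adjusted p = 0.312).

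**Figure D2:**
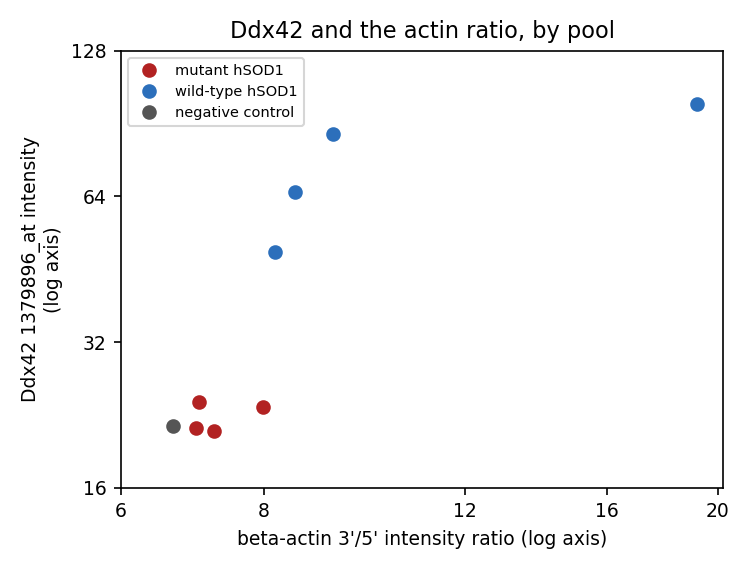
Intensity of Ddx42 probe set 1379896_at against the beta-actin 3'/5' ratio of the same array, both on log axes, with 1 point per pool. The wild-type pools lie above the others on both axes and in the same order on both, from replicate 4 (8.19 and 49.1) to replicate 2 (19.2 and 99.4).

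Of all tested probe sets, 3 passed between mutant and wild-type pools, 0.0161%, all lower in mutant pools, and 1 of them was the Ddx42 probe set. At an unadjusted p under 0.05 stood 2 of 65 helicase probe sets (3.08%), against 4.93% of all tested; both were lower in mutant pools, as were 2.18% of all tested. Mutant and wild-type pools did not overlap at 2 helicase probe sets, against 2.95% of all tested: Ddx42 1379896_at and Ddx31, both with the mutant pools below, as at 1.24% of all tested. The median log2 difference was 0.01 over the helicase probe sets and 0.01 over all tested probe sets, and 36 of 65 were higher in mutant pools (55.4%, against 53.7% of all tested). The median SD of log2 values within groups was 0.161 for helicases and 0.185 for all tested probe sets.

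**Figure D3:**
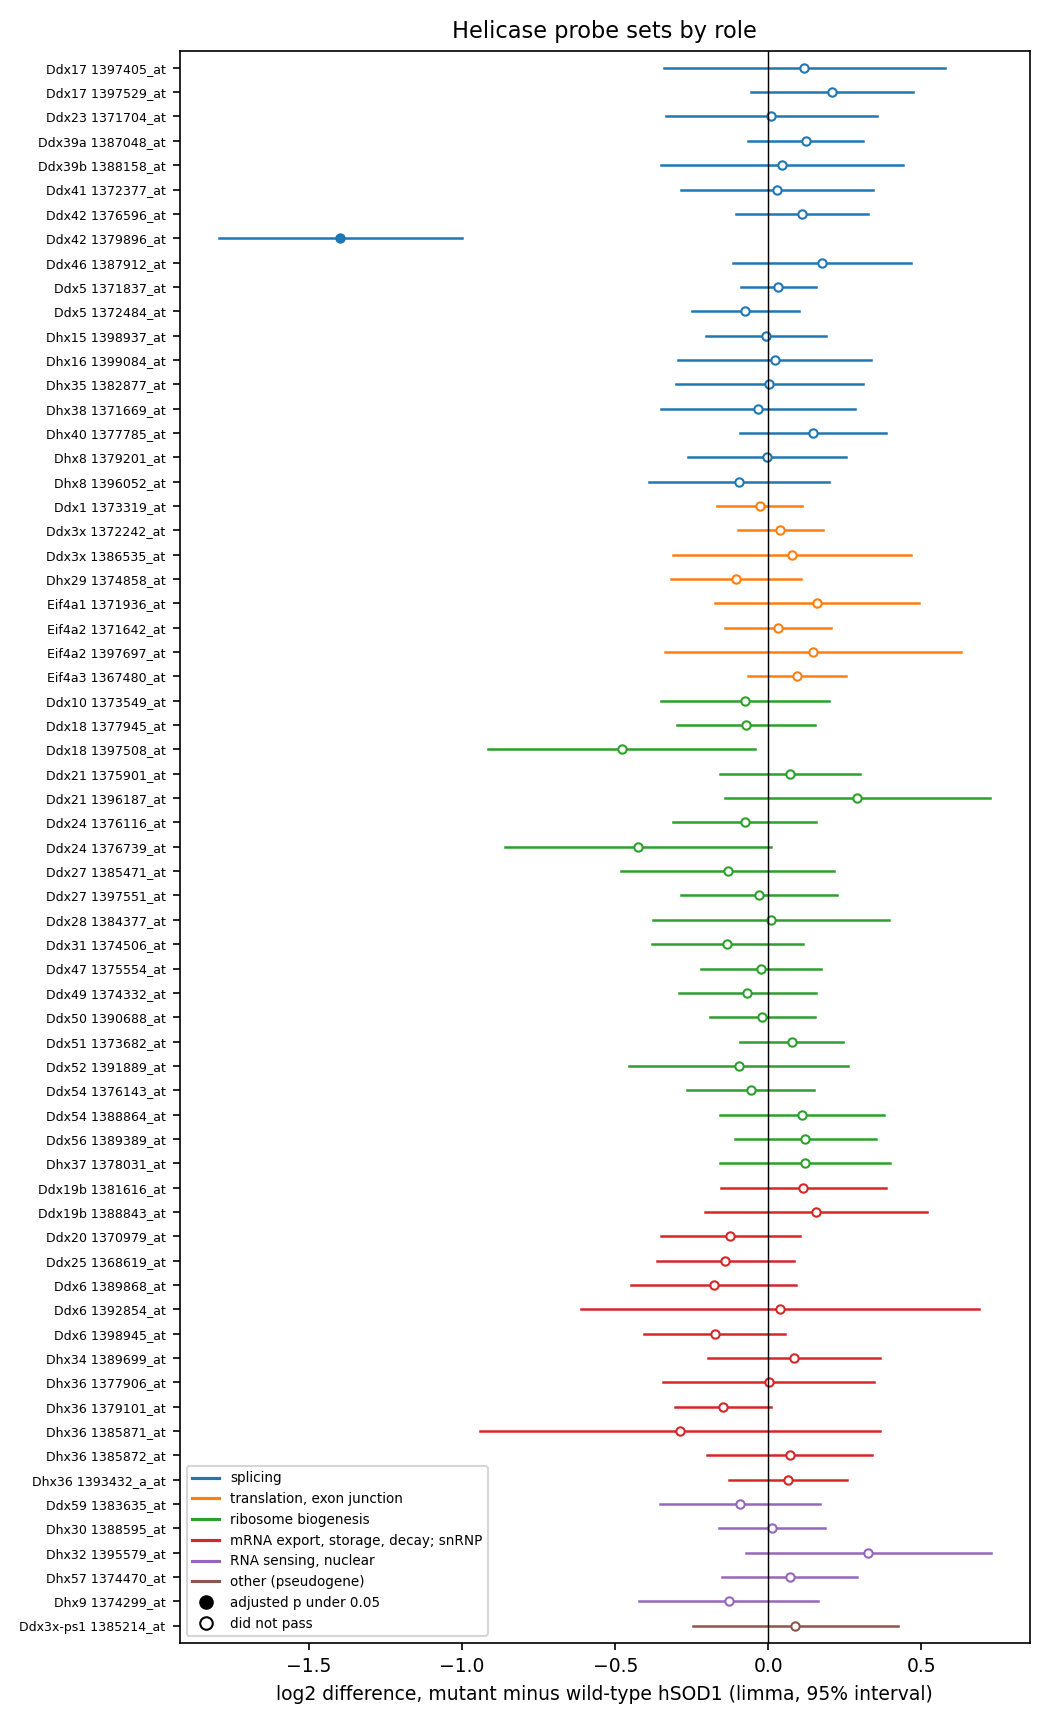
Mutant minus wild-type log2 difference for the 65 tested helicase probe sets with its 95% interval, grouped and coloured by role; a filled point passed at an adjusted p under 0.05. Ddx42 1379896_at at −1.40 stands alone, and 58 of the 65 points lie within 0.2 of no difference.

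The helicases of splicing were measured on 18 probe sets for 14 genes. Beside Ddx42 1379896_at, none of the other 17 passed, and their differences lay between −0.10 and 0.21. Ddx46, which like Ddx42 works with the U2 snRNP, had 359, 298, 345 and 355 in mutant and 366, 229, 339 and 280.0 in wild-type pools, with 328 in the negative control. The groups overlapped (log2 difference 0.18, limma adjusted p = 0.929). The difference was 0.05 without wild-type replicate 2, the lowest pool. Ddx5 and Ddx17, paralogs that unwind RNA in splicing and act as transcriptional coregulators, gave differences of 0.03 (1371837_at) and −0.07 (1372484_at) for Ddx5 and of 0.21 (1397529_at) and 0.12 (1397405_at) for Ddx17. Ddx17 1397529_at had 122, 127, 148 and 150.5 in mutant, 106, 107, 118 and 140.1 in wild-type pools, against 135 in the negative control, with overlap. Ddx39a, an RNA export and splicing helicase, had 659, 699, 633 and 679 in mutant and 619, 540.1, 688 and 612 in wild-type pools (negative control 621); wild-type replicate 3 lay among the mutant pools. Dhx40 was 150.1 ± 17.1 and 134 ± 6.98 (n = 4 each).

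A list of 19 genes of the U2 snRNP, of SF3 and of further splicing factors, such as U2af1, U2af2 and Sf1, was measured in full. Each gene was taken on its brightest probe set. None of the 19 passed in limma, 0 had an unadjusted p under 0.05, and 7 were higher and 12 lower in mutant pools, with differences from −0.11 to 0.09 and a median of −0.01. Sf3b1, the largest SF3b protein, averaged 2373 ± 112 in mutant and 2232 ± 193 in wild-type pools, against 2632 in the negative control. Rbm17, Sf3b3 and Snrpa1, a core protein of the U2 snRNP, differed by −0.10, 0.08 and 0.09.

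The helicases of translation and of the exon junction complex were measured on 8 probe sets for 6 genes, and their differences lay between −0.11 and 0.16. Eif4a1 and Eif4a2 are the helicases of the cap-binding complex that prepare mRNA for the ribosome. Eif4a1 had 1244, 1016, 1144 and 1155 in mutant, 1279, 679, 1059 and 1165 in wild-type pools, against 1129 in the negative control. Wild-type replicate 2 was the lowest pool; the log2 difference was 0.16 with it and −0.03 without it (limma adjusted p = 0.936 and 0.999). Eif4a2 averaged 2349 ± 117 in mutant and 2307 ± 248 in wild-type pools for 1371642_at, and 21.8 ± 7.19 and 19.0 ± 6.65 for the dim 1397697_at. Eif4a3, the anchor of the exon junction complex on spliced mRNA, was 1027 ± 51.8 and 962 ± 52.8, and 1078 in the negative control. Ddx3x, a helicase that helps the translation of structured mRNAs, was 3745 ± 303 and 3635 ± 107 on 1372242_at. Dhx29, which works at the small ribosomal subunit, was 761 ± 91.7 and 816 ± 66.4. The pseudogene Ddx3x-ps1 was 104 ± 19.3 and 97.2 ± 16.1; whether its probe set also picks up Ddx3x RNA could not be determined here.

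Among 10 partners and regulators of the Eif4a helicases, again on their brightest probe sets, 0 passed and 2 had an unadjusted p under 0.05. For all tested probe sets that share was 4.93%. Eif4ebp1, an inhibitor of the cap-binding protein, averaged 34.2 ± 1.12 in mutant and 23.0 ± 7.22 in wild-type pools (log2 difference 0.47, limma adjusted p = 0.929), against 36.4 in the negative control. Pdcd4, which binds Eif4a1 and blocks its activity, was 337 ± 34.0 and 434 ± 82.3 (difference −0.34, limma adjusted p = 0.929), against 339.7 in the negative control. Of the 7 measured exon junction partners, on their brightest probe sets, 6 were higher and 1, Magoh, lower in mutant pools (difference −0.20). None of the 7 passed, and 0 had an unadjusted p under 0.05. Of all tested probe sets, 53.7% were higher in mutant pools.

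The helicases of ribosome biogenesis were measured on 20 probe sets for 15 genes, of which 7 were higher and 13 lower in mutant pools. None passed, and 1 had an unadjusted p under 0.05. Over all tested probe sets, 53.7% were higher in mutant pools and 4.93% had an unadjusted p under 0.05. Ddx18 and Ddx24 are helicases of the nucleolus. Ddx18 1397508_at had 23.3, 21.8, 29.7 and 26.4 in mutant and 42.9, 60.1, 28.5 and 28.4 in wild-type pools, against 28.1 in the negative control. Wild-type replicates 1 and 2 stood above all mutant pools, and replicates 3 and 4 lay within the mutant range (log2 difference −0.48, SE 0.202, limma adjusted p = 0.929). The difference was −0.29 without wild-type replicate 2, and −0.14 after adjustment for the actin ratio. The brighter Ddx18 probe set 1377945_at was 98.2 ± 3.24 and 104 ± 5.41, a difference of −0.07. Ddx24 1376739_at had 538, 432, 497 and 623 in mutant and 578, 1122, 493 and 743 in wild-type pools, with 644 in the negative control. Wild-type replicate 2 was its highest pool; the difference was −0.43 with it and −0.20 without it, and −0.08 on the other Ddx24 probe set, 1376116_at. Ddx21, which links ribosomal RNA transcription to its processing, had 50.6, 61.1, 51.9 and 55.3 in mutant and 54.7, 23.4, 51.0 and 50.5 in wild-type pools on 1396187_at, where again wild-type replicate 2 alone stood apart. Its difference was 0.29 with that pool and 0.06 without it, and 0.07 on 1375901_at.

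Ddx31 had 58.8, 61.0, 55.8 and 61.6 in mutant pools and 67.0, 64.3, 62.9 and 69.2 in wild-type pools, with 69.6 in the negative control. All mutant pools lay below all wild-type pools and below the negative control, by a small margin (log2 difference −0.13, 95% interval −0.38 to 0.11, limma adjusted p = 0.931). Of the other ribosome helicases, Ddx10, Ddx27, Ddx28, Ddx47, Ddx49, Ddx50, Ddx51, Ddx52, Ddx54, Ddx56 and Dhx37 differed by −0.13 to 0.12.

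The helicases of mRNA export, storage and decay and of snRNP assembly were measured on 13 probe sets for 6 genes, with 7 higher and 6 lower in mutant pools and none past the threshold or at an unadjusted p under 0.05. Dhx36, which resolves G-quadruplexes, folded guanine-rich stretches of RNA and DNA, had 5 probe sets. On 1379101_at it had 1889, 2114, 1832 and 2007 in mutant and 2318, 2282, 2094 and 2000.5 in wild-type pools, against 2191 in the negative control. The ranges overlapped (log2 difference −0.15, 95% interval −0.31 to 0.01, limma adjusted p = 0.929). On 1385871_at it had 422, 357, 422 and 460.2 in mutant pools but 807, 226, 802 and 448 in wild-type pools, a 3.57-fold range within 1 group, the widest of any tested helicase probe set. Wild-type replicates 1 and 3 were high, replicate 2 was low and replicate 4 lay within the mutant range. The other 3 Dhx36 probe sets differed between the groups by 0.00 to 0.07.

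Ddx6, a helicase of stored and decaying mRNA in P-bodies, had 3 probe sets. On 1398945_at it had 652, 608, 604 and 635 in mutant and 873, 642, 734 and 604 in wild-type pools, against 614 in the negative control. On 1389868_at it had 895, 946, 853 and 697 and 1064, 1130.5, 892 and 773, and 942 in the negative control. Both gave overlapping groups and differences of −0.17 and −0.18 (limma adjusted p = 0.929 for each). On 1392854_at the pools ranged from 229 to 693 in mutant and from 227 to 522 in wild-type pools, with replicate 4 the highest in each group, and the difference was 0.04. Ddx20, which is Gemin3 of the SMN complex that loads Sm proteins onto snRNAs, averaged 161 ± 11.8 in mutant and 176 ± 15.4 in wild-type pools (difference −0.12), against 176 in the negative control. Of 8 other SMN complex genes, on their brightest probe sets, 7 were higher and 1, Smn1, lower in mutant pools (difference −0.14). The share higher in mutant pools was 53.7% over all tested probe sets. None of the 8 passed, 0 had an unadjusted p under 0.05, and Gemin4, Gemin6 and Gemin7 differed by 0.25, 0.23 and 0.19. Ddx25, a helicase best known from the testis, was 517 ± 68.4 and 569 ± 45.3.

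Among the helicases of RNA sensing and of nuclear regulation, 5 probe sets for 5 genes passed the filter. Dhx32 had 48.6, 37.1, 52.4 and 51.6 in mutant and 42.7, 22.6, 46.1 and 36.1 in wild-type pools, against 40.6 in the negative control. The groups overlapped, with wild-type replicate 2 the lowest pool (log2 difference 0.33, limma adjusted p = 0.929). The difference was 0.15 without that pool, and 0.0046 after adjustment for the actin ratio. Dhx9, a nuclear helicase that unwinds RNA and RNA-DNA hybrids, was 1019 ± 101 and 1132 ± 246, and Ddx59 and Dhx57 differed by −0.09 and 0.07.

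The 10 helicase probe sets below the filter belonged to 7 genes, and Ddx55, Ddx60 and Dhx58 had no probe set above it. Dhx58, a regulator of antiviral RNA sensing singled out with Ddx60 after their values were seen, had 3 probe sets, none above 15.9 in any pool. Its probe set 1385439_x_at had 5.56, 5.81, 8.10 and 11.3 in mutant and 13.2, 12.9, 15.2 and 15.9 in wild-type pools, without overlap, and 8.07 in the negative control. On its other probe sets, 1385276_a_at and 1385277_x_at, mutant and wild-type pools overlapped. Ddx60, an interferon-induced helicase, had 0.0986 to 0.432 in mutant and 0.987 to 6.07 in wild-type pools, also without overlap, and 0.207 in the negative control. How often the groups do not overlap among all probe sets below the filter was not counted. These levels lie below the filter and were not tested in the main fit. Those of Ddx60 also lie below the pseudocount of 8.25. So do mutant replicates 1 to 3 and the negative control on Dhx58 1385439_x_at, and some values of both groups on the other Dhx58 probe sets. In the limma fit with no filter, 4 of 75 helicase probe sets had an unadjusted p under 0.05 between mutant and wild-type pools. Over all probe sets of that fit the count was 1656 of 31042, and 0 helicase probe sets passed.

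Agreement between probe sets of 1 gene could be followed in 14 helicase genes, in 25 pairs, of which 10 are of Dhx36. Both probe sets differed in the same direction in 14 of 25 pairs (56.0%), against 54.1% of all 4615 pairs. At an unadjusted p under 0.05 stood 1 of the 25 pairs, Ddx42, against 6.05% of all pairs. After Ddx42 came the Ddx18 pair, whose probe sets differed in their contrast by 0.41 (95% interval −0.07 to 0.88, limma adjusted p = 0.809). Next were pairs of Dhx36, by −0.21 (1379101_at over 1393432_a_at) and −0.36 (1385871_at over 1385872_at), and the Ddx24 pair, by −0.35. Pairs of Dhx36 and of Ddx6 share probe sets and are not independent. The probe sets of Ddx17, Ddx19b, Ddx3x, Eif4a2 and Ddx27 differed from each other by at most 0.11.

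**Figure D4:**
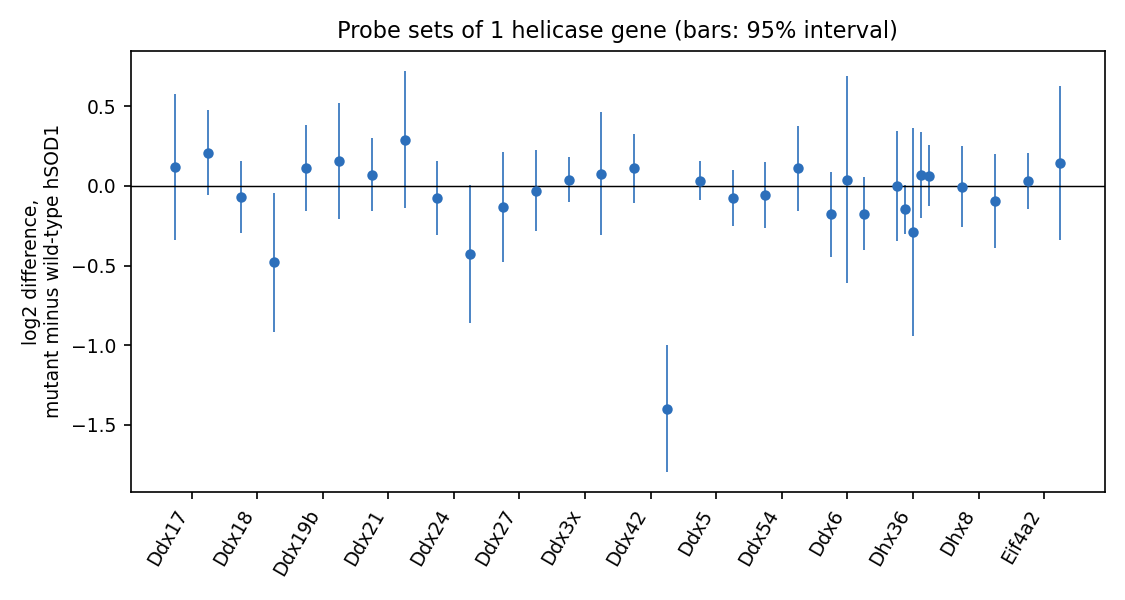
Mutant minus wild-type log2 difference for each tested probe set of the 14 helicase genes with more than 1, with bars for the 95% interval. The Ddx42 probe sets stand at 0.11 and −1.40 with intervals that do not meet, while the intervals of the other genes' probe sets overlap.

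The comparisons with the negative control ask what differs with either transgene, with 1 control pool that both share and that is assumed to vary like the transgenic pools. In limma 0 of 18625 probe sets passed for mutant pools (0% of them, with 427 or 2.29% at an unadjusted p under 0.05) and 0 for wild-type pools (0%, with 797 or 4.28%). Of the 65 helicase probe sets, 0 had an unadjusted p under 0.05 for mutant pools and 1 for wild-type pools. That 1 was Ddx42 1379896_at, with a log2 difference from the negative control of 1.44 in wild-type pools (SE 0.293, 95% interval 0.81 to 2.08, limma adjusted p = 0.536) and of 0.04 in mutant pools (95% interval −0.59 to 0.68). Its adjusted p for wild-type pools ranged from 0.189 to 0.996 over the alternatives. On Ddx42 1376596_at the differences were −0.32 in wild-type and −0.21 in mutant pools.

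The next helicases against the negative control, by p, did not pass and are given by their levels. The negative control was the highest or lowest of the 9 arrays at 12 of the 65 helicase probe sets (18.5%). For all tested probe sets that share was 19.7%. Ddx19b, a helicase that releases mRNA at the nuclear pore, had 73.1, 93.8, 81.2 and 68.9 in mutant and 75.0, 66.1, 73.3 and 74.5 in wild-type pools on 1381616_at, each above the 63.2 of the negative control. On 1388843_at it went the other way, with 125, 168, 154 and 106 and 121, 88.9, 137 and 146 against 162, where mutant replicate 2 alone lay above the control. Ddx51 had 486, 523, 492 and 472 and 467, 468, 458 and 475, each above 438. Ddx49 had 136, 142, 152 and 127 and 142, 159, 142 and 141, each above 121. Ddx47 had 529, 506, 609 and 591 and 519, 604, 549 and 598, each below 644. These last are helicases of ribosome assembly. Dhx36 1385872_at had 331, 277, 369.9 and 387 and 362, 266, 340.4 and 328, each below 392. The differences of these probe sets from the control lay between −0.39 and 0.28 (log2 scale, limma adjusted p from 0.98 to 1.00).

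Pools of 1 group varied by 2-fold or more at 9 helicase probe sets, 3 in mutant and 7 in wild-type pools. The share over all tested probe sets was not counted. Of those 7, wild-type replicate 2 was the highest or lowest wild-type pool for Dhx36, Ddx21, Ddx24, Ddx18, Dhx32 and Ddx42, and not for Ddx6. Replicate 4 was the highest pool of both groups at 10 of 65 helicase probe sets and at 10.4% of all tested probe sets. Splicing helicases among them, singled out after their values were seen, were Ddx39b with 1257, 1529, 1120.0 and 1955 in mutant and 1216, 1127, 1341 and 2021 in wild-type pools, and Ddx23 with 372, 329, 335 and 516 and 311, 392, 338 and 496. Ddx41 had 74.2, 82.3, 81.5 and 117 and 82.4, 81.8, 79.8 and 100.1. In each, replicate 4 stood above the other pools of both groups, and the groups differed by 0.04, 0.01 and 0.03 on the log2 scale. What the replicate numbers share is not given by the labels, apart from the tag le2 in the titles of replicates 2 to 4 of both transgenic groups. The least variable helicase probe sets were Ddx51, Ddx50 (1390688_at) and Ddx31, with SD values within groups of 0.05 to 0.06 on the log2 scale.

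**Figure D5:**
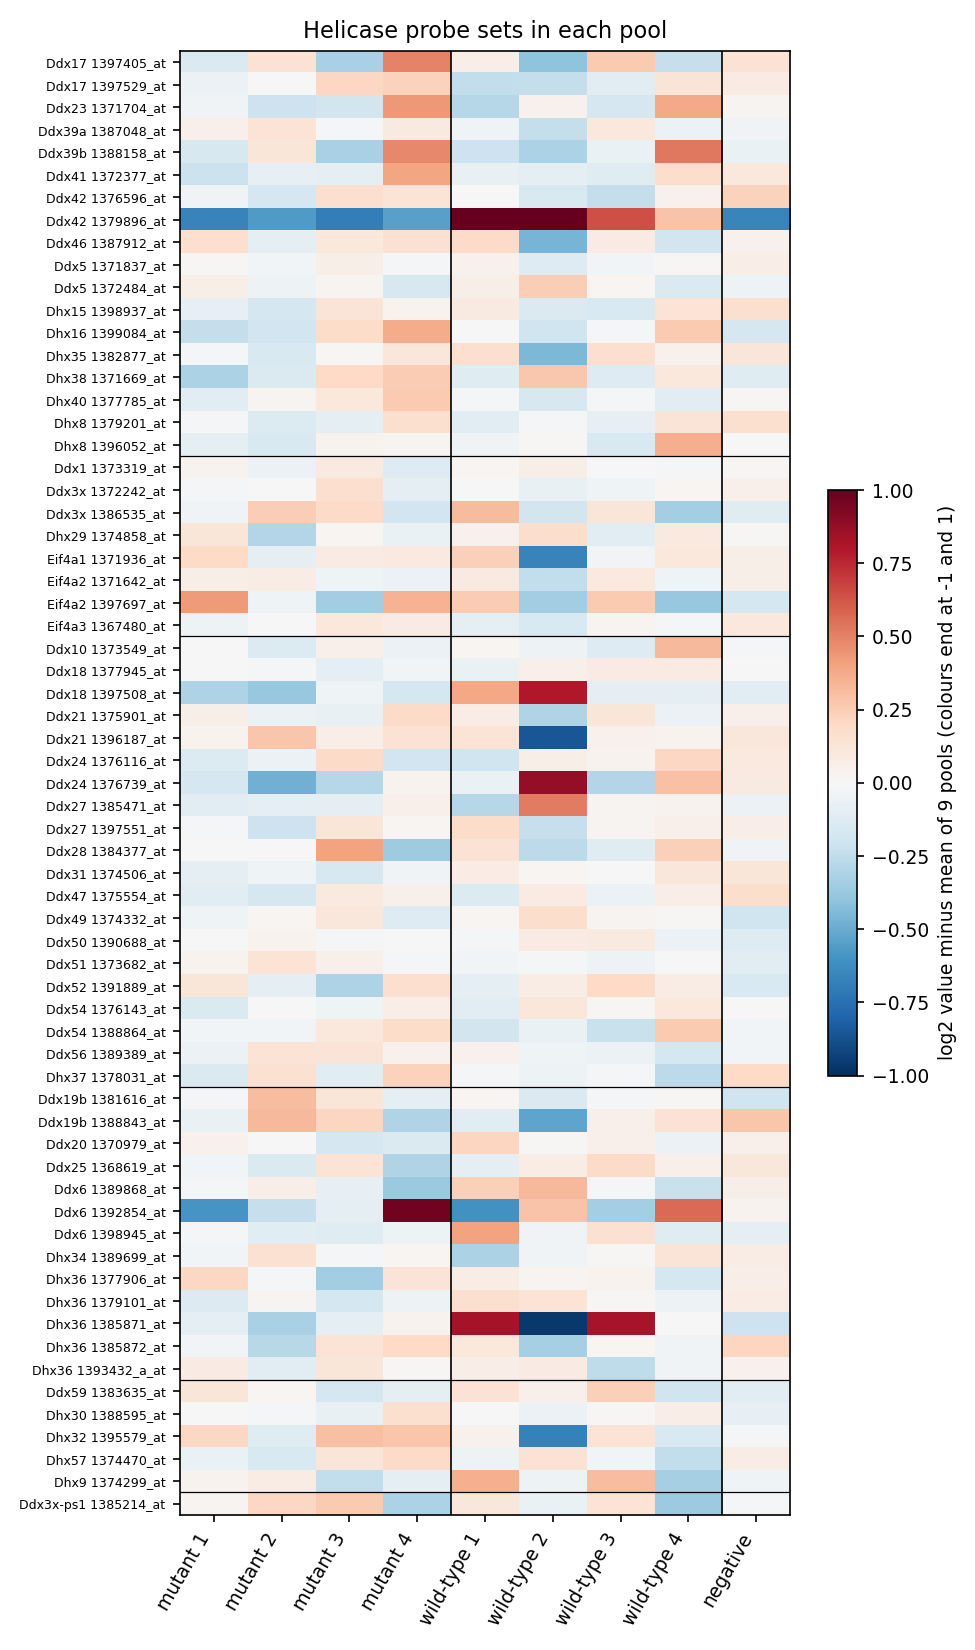
Log2 value of each tested helicase probe set minus its mean over the 9 pools, 1 column per pool and 1 row per probe set, in the order of the roles; red is above and blue below the mean, and the colours end at −1 and 1. Ddx42 1379896_at separates the wild-type pools from all others, while Dhx36 1385871_at, Ddx6 1392854_at and Ddx39b vary within groups.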

How the data were processed

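Ventral spinal cord RNA of 9 pools was hybridised to 9 Affymetrix rat arrays, 1 array per pool. The authors deposited a series matrix of intensities on a linear scale; no source used here gives their summarisation method. Trimmed means (2% from each end) were nearly equal between arrays. Array medians of log2 values had a range of 0.1015, under the limit of 0.2 for further normalization, so no further scaling was made. Of 31099 probe sets, 57 controls were removed. Of the rest, 20826 were annotated with 1 gene symbol, 436 with several and 9780 with none, and the symbols of all 75 helicase probe sets matched RefSeq by Entrez ID.

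Values were tested as log2(intensity + 8.25), the pseudocount being the 25th percentile of all values, which understates the change of dim probe sets. Probe sets with a mean log2 value below the 40th percentile (an intensity of about 17.3) were left out. limma 3.58.1 in R 4.3.3 (lmFit, eBayes with intensity trend) compared mutant with wild-type pools on those 8 arrays, and each with the negative control on all 9. Adjusted p-values are Benjamini-Hochberg over all tested probe sets, with a threshold of 0.05. Pairs of probe sets of 1 gene were tested as log2 differences in the same way. The scripts were tested on simulated data. Array number limits the precision.

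The helicases, gene lists and tests were chosen with earlier results of these data known. Named with values in every pool are both Ddx42 probe sets, the 10 helicase probe sets with the smallest p between mutant and wild-type pools, and the 5 with the smallest p against the negative control in each comparison. Given by group means are up to 4 genes of each list by p, and Eif4a1, Eif4a2, Eif4a3, Ddx3x, Ddx5, Ddx6, Ddx17, Ddx20, Ddx46 and Dhx9, on the brightest probe set. For pairs, the 5 with the smallest p are named. Other genes named with values (Ddx31, Ddx39b, Ddx23, Ddx41, Ddx60, Dhx58, the markers Runx1, Sncg and Isl1, further probe sets of named genes, and the intensities in each pool for Ddx46, Eif4a1 and Dhx36 1385871_at) were chosen after their values were seen.

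Alternatives were quantile normalization, pseudocounts of 2.06 and 33.0, no filter and a 60th-percentile filter, no intensity trend, the le2 tag, actin ratio or replicate number in the fit, all 9 arrays, 1 probe set per gene and leaving out each replicate. Replicates are labelled as biological replicates, each a pool of 5 embryos. The deposited intensities give no coordinates or genome build, and probe sequences were not used here.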

Additional observations from a re-analysis of the deposited data

Results flagged for a closer look

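In 4 of 130 helicase groups of 4 pools (65 probe sets in mutant and wild-type pools) 1 pool lay far from the other 3 by Dixon's criterion, as in 1925 of 37250 such groups over all tested probe sets; chance alone gives about 1 in 20. These were Ddx27 1385471_at in mutant replicate 4 (61.53, next 55.02), Ddx21 1396187_at in wild-type replicate 2 (23.4, next 50.53), Ddx41 in wild-type replicate 4 (100.1, next 82.43) and Ddx49 in wild-type replicate 2 (159.4, next 142.3). Among partner genes, Gemin7 stood apart in wild-type replicate 4 (113.5, next 88.52), and Rnps1 (1178, next 1489) and Sf3b1 (1943, next 2300) in wild-type replicate 2. The beta-actin 3'/5' ratio stood apart in wild-type replicate 2 as well (19.18, next 9.204). The causes were not tested.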

How the results depend on the processing

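Of 1173 values of named probe sets and pairs under alternatives, 1133 kept their direction and their side of the threshold, 26 reversed, 11 lost a call and 3 gained one. The number of probe sets called between mutant and wild-type pools was 3, and became 1 with no filter, 1 with the 60th-percentile filter, 1 with the le2 tag, 0 without intensity trend (993 at an unadjusted p under 0.05) and 0 with the actin ratio in the fit (680), and 1 to 3 with a replicate left out (limma). Called helicase probe sets, 1 of 65, became 0 in each of those 5 fits and with 1 probe set per gene, and 0 to 1 with a replicate left out. The stricter filter removes Ddx42 1379896_at and 1 probe set per gene keeps the brighter one; in the other fits the cause was not tested. Its adjusted p was 0.157 with no filter, 0.101 without trend and 0.0649 with the le2 tag. Calls against the negative control went from 0 to 1 in each comparison with the pseudocount of 2.06, and for wild-type pools lay at 0 to 1 with a replicate left out (1 without wild-type replicate 1). Called pairs went from 0 to 2 with quantile normalization, 3 with the pseudocount of 33.0 and 2 with the 60th-percentile filter, and 0 to 1 with a replicate left out. The log2 actin ratio difference between mutant and wild-type pools, −0.53, ranged from −0.65 to −0.24 with a replicate left out (exact permutation p from 0.0286 to 0.114).

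With the actin ratio in the fit, small differences between mutant and wild-type pools changed sign: Ddx21 1396187_at to −0.10, Ddx6 1389868_at to 2e-04, Ddx47 to 0.013, Ddx49 to 0.0086, Ddx19b 1388843_at to −0.071, Dhx36 1385872_at to −0.11, Eif4a1 to −0.19, Eif4a2 to −0.028 (1397697_at) and −0.089 (1371642_at), Ddx5 to −0.027, Ddx46 to −0.046, Rnps1 to −0.048, Sf3b1 to −0.0255, Sf3b3 to −0.035 and the Ddx24 pair to 0.0065. The Ddx42 1379896_at difference of mutant pools from the control became −0.025. With a replicate left out, signs varied for Ddx47 (−0.0655 to 0.023), Ddx3x (−0.0125 to 0.078), Ddx3x-ps1 (−0.018 to 0.21), Dhx36 1385872_at (−0.020 to 0.16), Eif4a1 (−0.034 to 0.27), Eif4a2 1371642_at (−0.042 to 0.072) and Ddx5 (−9e-04 to 0.055). None of these passed in any fit.

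Same-numbered mutant and wild-type pools correlated in their deviations by 0.12, 0.09, −0.07 and 0.20 for replicates 1 to 4, so the numbers were not taken as pairs. With a replicate block 3 probe sets were called, 1 of them a helicase, Ddx42 1379896_at (−1.40, limma adjusted p = 0.0458), and 0 pairs (385 at an unadjusted p under 0.05), with the Ddx42 pair at 0.104.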
